A study of Mus musculus with 60 samples.

Results

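Mouse hepatocytes kept on collagen without any added growth factor were compared between a later window, 24 and 32 h, and an earlier window, 8 and 16 h, of the experiment's clock. The comparison was chosen by the hour and stimulus in the sample labels: the 4 unstimulated arrays of 24 and 32 h (2 per hour) against the 4 of 8 and 16 h (2 per hour), 8 of the 60 arrays of the series. That rule reads no measured value, but the arrays and the gene lists were chosen with earlier results of these data known. The cells came from livers of male C57BL/6N mice aged 8 to 12 weeks, with no transgene or deletion named in the labels. They attached for 4 h in serum-containing medium with insulin, and were then kept for 24 h before time 0 in serum-free medium without insulin that held 100 nM dexamethasone, a synthetic glucocorticoid, and 2 mM glutamine. All groups share that preparation, so no group is freshly isolated liver, and the 32 h samples had been out of the liver longest. The other arms of the study received hepatocyte growth factor (HGF) at 40 ng/ml, interleukin-6 (IL-6) at 40 ng/ml, or both, and are used here only where a late change is set against theirs. One preparation came from a single animal or a pool of up to 3 animals, and the labels do not say which arrays share a preparation. The p-values below rest on array-to-array spread alone, and part of that spread may be technical.

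Hepatocytes are the liver's metabolic cells. They make most plasma proteins, bile acids and urea, and clear drugs through cytochrome P450 enzymes and conjugating enzymes. Taken out of the liver and spread on a flat matrix, they are known to lose that repertoire over time, a process called dedifferentiation, while stress, cytoskeletal and growth-associated genes come up. The nuclear receptor HNF4A and the C/EBP proteins are among the transcription factors that hold the hepatocyte program.

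RNA was read on Affymetrix mouse expression arrays, on which several short probes near the 3′ end of a transcript form a probe set. All values are log2 intensities, so a difference of 1 is 2-fold. Array medians lay between 4.89 and 4.94 on the 8 arrays, and the highest value of an array was between 14.42 and 14.503, which bounds what can be seen for the most abundant transcripts. Arrays of the same hour correlated at 0.9973 to 0.9983 over the tested genes, and arrays of 8 h with those of 32 h at 0.9623 to 0.9637. The difference between the 3′ and the 5′ probe sets of actin, a sign of RNA integrity, went with the hour: 0.42 to 0.46 at 8 h, 0.48 to 0.51 at 16 h, 0.54 to 0.56 at 24 h and 0.71 to 0.72 at 32 h. The same difference for Gapdh did not go with the hour. It was 0.05 to 0.075 at 8 h and -0.02 to 0.01 at 16 h. At 24 h it was 0.03 to 0.05, and at 32 h 0.04 to 0.09. The part of either in the late differences was not tested. Counts and medians of the gene lists are therefore also given for 24 h alone, whose actin values lie next to those of 16 h. Many falls were smaller there. The hepatocyte markers sat at a median of the 99.1st percentile of their arrays. Of these, 8 of 11 fell and 0 rose, with a summed intensity of 83740 to 94118 in the earlier window and 56896 to 77167 in the later one. Their median difference was -0.49, and -0.16 with 24 h alone, where 7 fell and 1 rose. Of the Kupffer cell (liver macrophage) markers, 9 of 15 tested fell and 0 rose, with a summed intensity of 1145 to 1203 in the earlier window and 803 to 1055 in the later one. With 24 h alone 7 Kupffer markers fell and 1 rose (median -0.28, against -0.29 over both late hours). Endothelial markers had 3 rises and 5 falls in 14 (2 and 5 with 24 h alone), with sums of 1035 to 1067 and 878 to 1007. The leukocyte marker Ptprc did not pass the filter on low values. The table gives no detection calls, so a value below its array's median may be background rather than a level, and a fold that rests on one is given as a lower bound with such values raised to the median.

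Of 14513 genes tested, 8843 (60.9%) differed between the windows at an adjusted p under 0.05 (limma, Benjamini-Hochberg over all tested genes). Of these, 4538 (31.3%) were higher and 4305 (29.7%) lower at 24 and 32 h. These shares are the background for the list counts below over both late hours. A change of at least 2-fold was called for 269 rises (1.85%) and 279 falls (1.92%). The 4 late arrays did not overlap the 4 earlier ones for 5659 genes (39.0%), 2901 of them higher and 2758 lower. The count is lower, 5588, when only the 8 arrays are fitted, as 2 windows. With 24 h alone against 8 and 16 h, 6315 genes (43.5%) were called, 3423 higher (23.6%) and 2892 lower (19.9%). The median difference over all tested genes was -0.04, with a median size of 0.21 and a median standard error of 0.07. In these bulk samples, fewer cells of a type and less RNA per cell cannot be told apart.

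The 12 largest rises held the stress-response regulators Ddit3, Nupr1, Gadd45a and Atf3 and the hormone gene Fgf21, beside genes of other kinds. Ddit3, the largest, encodes CHOP, a transcription factor of the integrated stress response. Its log2 intensity was 7.63 and 7.70 at 8 h, 9.57 and 9.51 at 16 h, 11.43 and 11.58 at 24 h, and 11.91 and 11.86 at 32 h. The 4 late arrays stood above all earlier ones, and the 16 h arrays stood between those of 8 h and 24 h. The difference between the windows was 3.09 (SE 0.10, n = 4 arrays per window, adjusted p = 9.58e-30), or 8.51-fold. Nupr1, a small stress-induced chromatin protein, read 6.62 and 6.77 at 8 h, 7.94 and 8.02 at 16 h, 9.50 and 9.71 at 24 h, and 10.71 and 10.78 at 32 h. It climbed at each hour and differed by 2.83 (SE 0.09, adjusted p = 2.31e-29).

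Fgf21, a hormone that the liver secretes in fasting and under stress, followed another course. Its arrays read 5.77 and 5.88 at 8 h, 6.62 and 6.56 at 16 h, 9.28 and 9.50 at 24 h, and 8.25 and 8.21 at 32 h. It was highest at 24 h and lower again at 32 h, with no overlap between the windows (difference 2.60, SE 0.09, adjusted p = 9.23e-28, 6.07-fold). Gadd45a, a growth-arrest and DNA-damage gene, read 8.70 and 8.60, 9.72 and 9.83, 11.50 and 11.45, and 11.94 and 11.94 at the 4 hours in order. Atf3, a stress-induced repressor of transcription, read 8.05 and 7.81, 8.78 and 8.82, 10.76 and 10.64, and 10.68 and 10.53. Gadd45a went on above its 24 h level at 32 h, and Atf3 stayed near its 24 h level. Their differences were 2.50 for Gadd45a and 2.29 for Atf3.

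Marcks and Enah, which act on actin, were also among the 12, while the wider list of actin cytoskeleton and adhesion genes had 9 rises and 13 falls in 29 tested (median -0.04, and 8 rises and 10 falls with 24 h alone). Marcks, a membrane protein that binds actin, read 7.49 and 7.06 at 8 h, 8.59 and 8.77 at 16 h, 9.99 and 9.88 at 24 h, and 10.93 and 10.84 at 32 h. The Marcks difference was 2.44, with no overlap between the windows. Enah, which extends actin filaments at the leading edge, rose by 2.58, from between 6.23 and 7.06 in the earlier window to between 8.41 and 10.07 in the later one. The mitochondrial carrier gene Slc25a36 (2.71, and at least 3.92-fold since all 4 earlier arrays lay below their medians) and the stress-associated Niban1 (2.58) completed the coding genes of this group. It also held 3 genes annotated without a known protein: Neat1 (2.85), the RNA scaffold of paraspeckles, Snhg12 (2.50), a host of small nucleolar RNAs, and 5430416N02Rik (2.59). Neat1 has 2 probe sets on the array, and the other one had the opposite sign. At least 1 probe set of opposite sign was also found for Afmid, Cdk6, Csnk1d, Dgat1, E2f3, H2-D1, Hspa5, Il1rn, Il6ra, Per2, Per3, Nr1d2, Plk2, Rora, Sel1l, Socs2, Sox4, Srf, Tef and Yap1, and their directions below are those of the brightest probe set.

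The largest falls were enzymes and carriers of differentiated hepatocytes. Arg1, the last enzyme of the urea cycle, read 9.66 and 9.49 at 8 h, 8.58 and 8.48 at 16 h, 6.71 and 7.11 at 24 h, and 3.83 and 4.51 at 32 h. Each hour lay below the hour before it, and the late arrays were all below the earlier ones. Arg1 fell by 3.51 on the log2 scale (SE 0.14, adjusted p = 3.26e-25). Its 32 h arrays lay below their medians, so the fall was at least 8.89-fold. Baat, which joins bile acids to taurine or glycine, read 8.86 and 8.58, 8.54 and 8.70, 7.03 and 7.03, and 3.95 and 4.09 at the 4 hours. It was level from 8 to 16 h and dropped at both later steps, and fell by 3.15 between the windows (SE 0.11, adjusted p = 4.42e-28), at least 6.55-fold by the same bound. Fabp1, the liver's fatty acid binding protein, read 10.52 and 10.44, 8.99 and 9.43, 7.57 and 7.74, and 6.09 and 6.38. Fabp1 dropped at every step, and between the windows it fell by 2.90.

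Asgr1, a subunit of the receptor that clears desialylated glycoproteins, read 8.96 and 8.99 at 8 h, 8.05 and 8.08 at 16 h, 6.54 and 6.71 at 24 h, and 5.28 and 5.32 at 32 h. Crp, an acute phase protein, read 9.22 and 9.13, 8.03 and 7.93, 7.03 and 7.35, and 4.94 and 5.12. Both were lower at each later hour without overlap, and between the windows Asgr1 fell by 2.56 and Crp fell by 2.47. Bdh1, which interconverts ketone bodies, read 8.07 and 8.08 at 8 h, 8.04 and 7.86 at 16 h, 6.72 and 7.04 at 24 h, and 3.76 and 4.16 at 32 h. Bdh1 fell by 2.59, mostly after 16 h, and by at least 4.37-fold. The group was completed by the sulfotransferase gene Sult2a8 (-2.65), the aldehyde dehydrogenase gene Aldh1a7 (-2.57), the sulfate transporter gene Slc26a1 (-2.51), Wfdc21 (-2.47), the fatty acid binding protein gene Fabp2 (-2.42) and the P450 gene Cyp2d26 (-2.40). Late arrays of Sult2a8, Slc26a1 and Fabp2 also reached below their medians, with bounds of at least 3.20-fold, 5.09-fold and 4.70-fold, so the order of size among these falls is uncertain. Probe sets of near-identical paralogues can read each other's RNA, so values of single members of the Cyp2c, Cyp2d, Cyp3a, Ugt, Sult, Aldh1a and Saa families are uncertain as to the member.

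**Figure D1:**
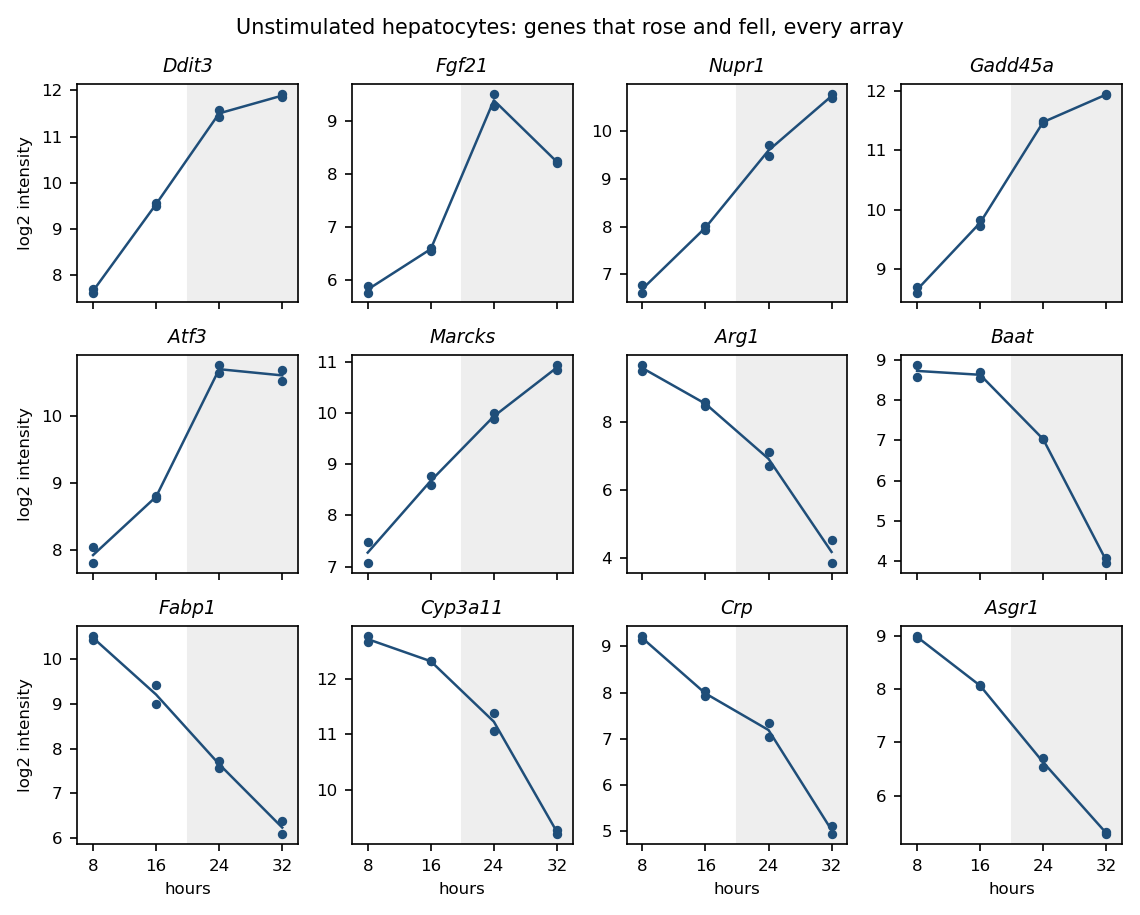
Log2 intensity (vertical axis) of 12 genes on the 8 unstimulated arrays against the hour (horizontal axis). Points are arrays, the line joins the means of each hour's 2 arrays, and the later window is shaded grey. Ddit3, Nupr1, Gadd45a and Marcks climb through 32 h, Fgf21 peaks at 24 h, and Arg1 and Baat drop from above 8 at 8 h to below 5 at 32 h.

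Rises and falls of at least 2-fold differed in when most of the change lay. The largest step between neighbouring hours was that from 16 to 24 h for 172 of the 269 rises (63.9%), from 24 to 32 h for 69 (25.7%) and from 8 to 16 h for 28 (10.4%). Among the 279 falls it was that from 24 to 32 h for 165 (59.1%), from 16 to 24 h for 107 (38.4%) and from 8 to 16 h for 7 (2.51%). The median steps of these rises were 0.39, 0.85 and 0.50 in order of time, and those of the falls -0.34, -0.79 and -0.96. These genes were picked by the same windows, so the steps are a description. Over all tested genes, 2820 (19.4%) differed between 8 and 16 h, 5153 (35.5%) between 16 and 24 h and 5703 (39.3%) between 24 and 32 h. The count for 8 to 16 h depends on single arrays, at 1724 and 1637 without 8 h replicate 1 or 2 and at 2339 and 1677 without 16 h replicate 1 or 2.

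Drug and steroid metabolism by cytochrome P450 enzymes fell as a group. Of 30 P450 genes and partners listed, 3 had no probe set of their own, 27 were tested, 22 fell and 0 rose, against 29.7% of all genes falling. The list's median difference was -1.15, and 15 genes fell at least 2-fold (background 1.92%). For 24 h alone the median was -0.76 and 20 fell (background 19.9%). Cyp2e1, which oxidises ethanol and small solvents, read 11.06 and 11.05 at 8 h, 10.06 and 10.14 at 16 h, 8.86 and 8.79 at 24 h, and 7.74 and 7.75 at 32 h. Duplicate arrays nearly coincided, and each hour was below the last (difference -2.29, SE 0.05, adjusted p = 5.35e-35). Cyp3a11, a main drug-metabolising P450, read 12.77 and 12.65, 12.31 and 12.31, 11.06 and 11.38, and 9.20 and 9.28. Cyp3a11 fell by 2.28, mainly after 16 h, and Cyp1a2 fell by 1.78. Members that did not pass the test were Cyp7a1, the rate-limiting enzyme of bile acid synthesis (-0.18, adjusted p = 0.105, with all 8 arrays below their medians), Cyp39a1 (0.13), Cyp3a13 (-0.05), Cyp4b1 (-0.11) and Cyp4v3 (0.01). Here and below, members named only because few did otherwise than the rest of a list were chosen after their values were seen.

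Conjugating enzymes, which make drugs and steroids water-soluble, fell in 23 of 30 tested cases, with a median of -0.54. Ugt2b1 (-2.03), Ugt2b5 (-1.24), Ces2a (-1.20) and Ces1c (-0.79) had the smallest p-values. The 4 that rose were Ugt2b34 (0.29), Nnmt (0.26), Gstm1 (0.22) and Gstt2 (0.20). At 24 h alone, the conjugation list's median was -0.14 and 16 fell. Hepatic transporters fell in 18 of 23 cases (median -0.65, and -0.52 with 24 h alone). Slc27a5, which activates bile acids and fatty acids, read 10.97 and 10.94 at 8 h, 10.31 and 10.20 at 16 h, 9.14 and 9.22 at 24 h, and 8.03 and 8.12 at 32 h. It dropped by a similar amount at each later step and fell by 1.98 between the windows (SE 0.05, adjusted p = 5e-34). The glucose carrier Slc2a2 (-1.34) and the efflux pump Abcg2 (-0.82) fell. The 3 transporters that rose were Abcc4 (1.67), Abca1 (0.77) and Abcc2 (0.54). Abcc4 is a basolateral bile acid and nucleotide pump, Abca1 exports cholesterol, and Abcc2 is the canalicular conjugate pump. All 3 are exporters of the ABC family, but so is Abcg2, which fell. Of 14 genes of bile acid synthesis and conjugation, 10 fell and 0 rose (median -0.40, and -0.20 with 24 h alone, where 7 fell and 2 rose).

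Nitrogen metabolism fell too. In the urea cycle list, 8 of 10 tested genes fell (median -0.71, and -0.58 with 24 h alone, where 8 also fell). Cps1, which fixes ammonia in the cycle's first step, read 10.83 and 10.72 at 8 h, 9.65 and 9.61 at 16 h, 8.83 and 8.85 at 24 h, and 8.10 and 7.93 at 32 h. Unlike Baat, Cps1 had its largest step between 8 and 16 h. Otc read 9.66 and 9.64, 9.01 and 9.13, 8.02 and 7.86, and 6.59 and 6.57, and fell by 2.10 (SE 0.08, adjusted p = 2.34e-26). Asl fell by 1.01. Glul, which makes glutamine (-0.11), and the ammonia channel gene Rhbg (-0.01) did not pass the test. Enzymes of amino acid breakdown fell in 26 of 32 cases (median -0.42, and -0.20 with 24 h alone, where 18 fell), among them Aass (-1.77), Gldc (-1.39), Gpt (-1.20) and Ddc (-1.09). The rises were Bckdha (0.55), Afmid (0.21) and Got1 (0.11). Methionine and one-carbon enzymes fell in 13 of 15 cases (median -0.88, and -0.38 with 24 h alone, where 11 fell), led by Gnmt (-0.95), Cdo1 (-1.90), Ahcy (-1.02) and Shmt1 (-1.01), while Cth rose (0.29).

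Genes of glucose release and of fatty acid metabolism fell more often than they rose. Of 12 genes of gluconeogenesis and glucose release, 8 fell and 0 rose (median -0.37, and -0.16 with 24 h alone, where 5 fell and 1 rose). Pck1, the enzyme that commits carbon to glucose synthesis, read 6.16 and 5.94 at 8 h, 5.75 and 6.13 at 16 h, 4.11 and 4.28 at 24 h, and 3.74 and 3.82 at 32 h. The 8 and 16 h arrays overlapped each other and stood above the late ones (difference -2.01, SE 0.19, adjusted p = 7.51e-13), and since all 4 late arrays lay below their medians the fall was at least 2.14-fold. Fbp1 (-1.05) and Slc37a4 (-1.26), the glucose-6-phosphate carrier, fell, while G6pc, below the median on all 8 arrays, was at -0.13 and did not pass the test. The 18 tested glycolytic genes had 7 rises and 7 falls (5 and 6 with 24 h alone). Genes of fatty acid oxidation and ketogenesis fell in 18 of 24 cases (median -0.34, and -0.24 with 24 h alone, where 16 fell), with Acaa1b at -1.66 and Ech1 at -0.82. The 4 that rose were Fgf21, Angptl4 (0.43), Vnn1 (0.41) and Pdk4 (0.21). Fatty acid and triglyceride synthesis fell in 14 of 20 cases (median -0.35, and -0.24 with 24 h alone, where 12 fell), including Fads2 (-0.93), Scd1 (-0.90) and Mlxipl (-0.64), a glucose-responsive transcription factor, while Dgat1 (0.41) and Lpin1 (0.21) rose.

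Genes of plasma proteins made by the liver fell more often than they rose in each list, and in each list the median was smaller in size with 24 h alone. Apolipoproteins and lipid secretion genes fell in 16 of 17 cases with 0 rises, with a median of -0.95 (15 fell with 24 h alone, median -0.59), Apob (-0.14) being the one that did not pass. Apon read 9.60 and 9.51 at 8 h, 8.95 and 8.89 at 16 h, 7.95 and 8.05 at 24 h, and 5.86 and 5.75 at 32 h, and fell by 2.34 (SE 0.06, adjusted p = 5.39e-34). Apoa1, the main protein of high-density lipoprotein, read 13.86 and 13.84, 13.62 and 13.60, 12.84 and 12.93, and 11.60 and 11.42. Both had their largest step from 24 to 32 h. Positive acute phase proteins, whose synthesis inflammation raises, fell in 24 of 28 cases (median -0.75, and -0.45 with 24 h alone, where 19 fell). Fgg, a fibrinogen chain, read 12.35 and 12.33 at 8 h, 11.99 and 11.89 at 16 h, 11.25 and 11.37 at 24 h, and 9.09 and 9.38 at 32 h (difference -1.87, adjusted p = 5e-34). Fga (-1.90), Steap4 (-2.14) and Saa2 (-1.68) fell likewise. The exceptions were Hamp (0.88), which encodes the iron hormone hepcidin, Il1rn (0.30), Cp (0.07) and Hpx (0.06), and 1 called member of the list changed sign under quantile normalization. Carrier and negative acute phase proteins fell in 11 of 16 cases (median -0.29, and -0.17 with 24 h alone, where 8 fell), again with 1 called member of changed sign under quantile normalization, and with Rgn at -1.67 and Afm at -1.15. Complement genes fell in 15 of 22 cases (median -0.32, and -0.12 with 24 h alone, where 10 fell), with C8g at -1.89 and Mbl1 at -1.76. Coagulation and fibrinolysis genes fell in 18 of 24 (median -0.48, and -0.26 with 24 h alone, where 13 fell), with Serpinf2 at -1.80 and Plg at -1.31. Thbd (0.82) and Plaur (0.18) rose.

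Albumin stood apart from this pattern at the top of the array's range. Alb lay between 14.24 and 14.38 on the 8 arrays and differed by -0.08 (adjusted p = 0.000296), close to the highest values that an array reached, so a change may not be visible there. Afp, the fetal counterpart of albumin, did not pass the test (-0.01, adjusted p = 0.878). Of 11 tested fetal liver genes, Ahnak (0.59), Plagl1 (0.70) and Mdk (0.22) rose and 0 fell, with 1 rise at 24 h alone. Ahnak and Plagl1 each have probe sets of opposite sign.

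**Figure D2:**
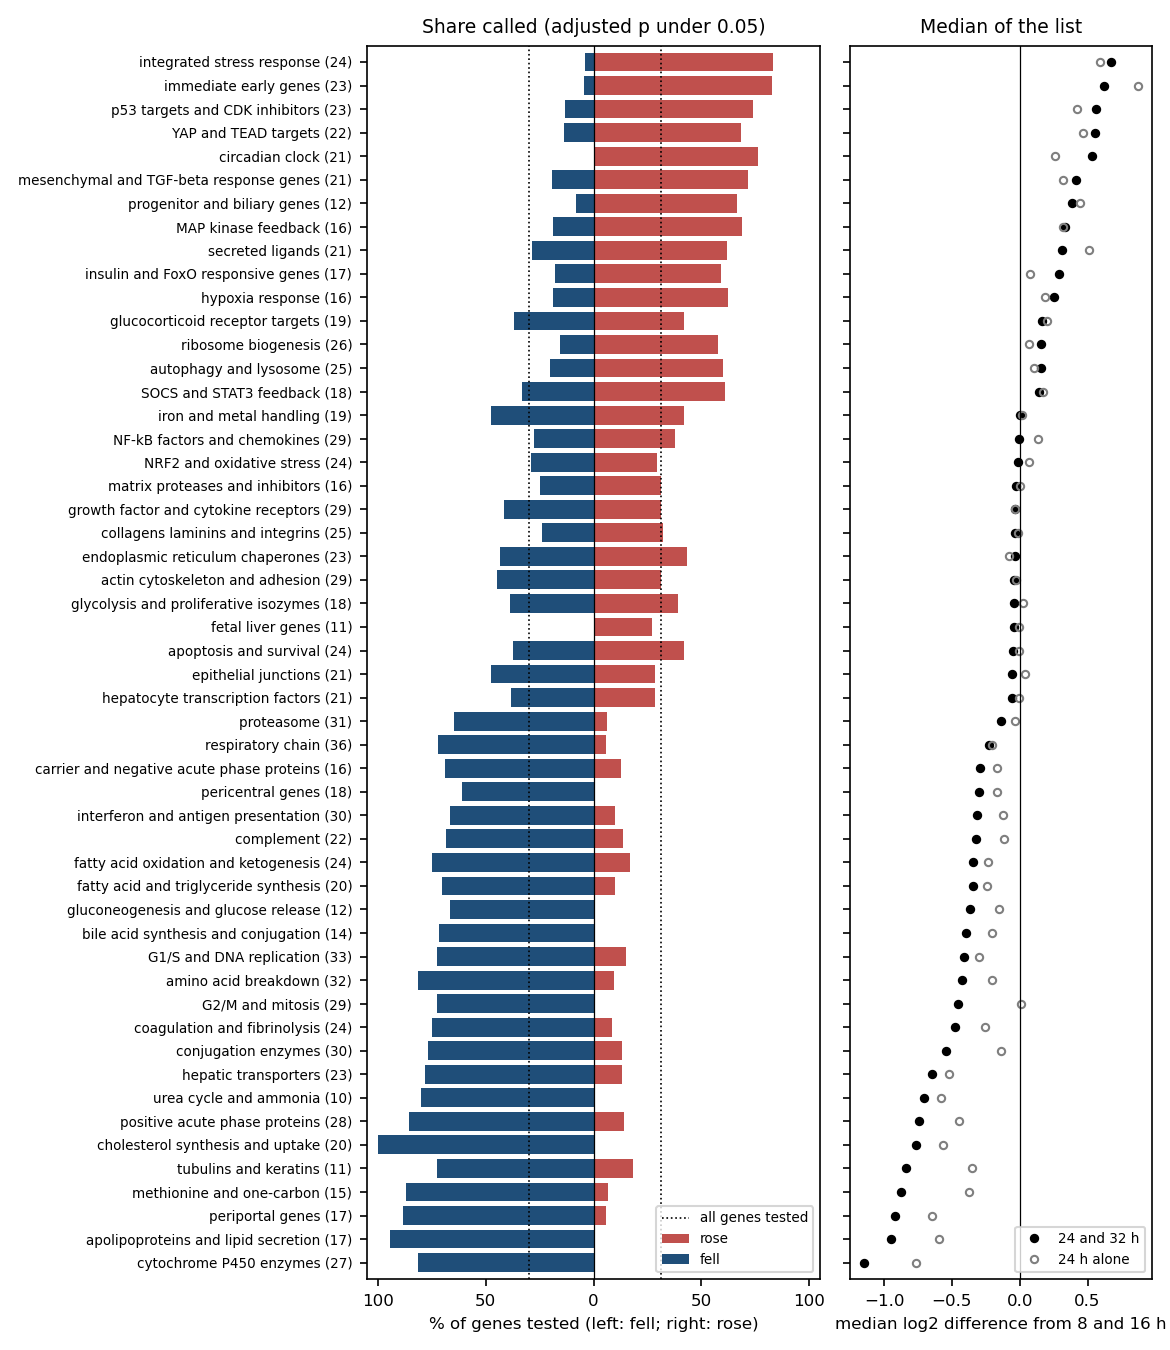
Left, the share of each list's tested genes (percent, horizontal axis) that rose or fell at 24 and 32 h against 8 and 16 h, for 52 gene lists, with dotted lines at the shares of all tested genes (31.3% and 29.7%). Right, each list's median log2 difference, filled for 24 and 32 h and open for 24 h alone; the P450 list lies at -1.15 and the integrated stress response list at 0.68.

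The transcription factors that hold the hepatocyte program did not move together. Of 21 tested, 6 rose and 8 fell, with a median of -0.06 (5 and 6 with 24 h alone). Of all tested genes 31.3% rose and 29.7% fell, so these counts are not far from the background. Hnf4a read 10.95 and 10.89 at 8 h, 10.80 and 10.58 at 16 h, 10.02 and 10.21 at 24 h, and 9.51 and 9.55 at 32 h. All its late arrays were below all earlier ones (difference -0.98, SE 0.06, adjusted p = 2.13e-18). Nr1h4, the bile acid receptor, fell by 1.06, a member named after its value was seen. Cebpa read 8.17 and 8.24, 8.33 and 8.07, 8.65 and 8.77, and 9.19 and 9.20, and rose by 0.75 (adjusted p = 1.27e-15). Cebpb, the C/EBP protein of acute responses, rose by 0.93, Gata6 by 0.92 and Onecut2 by 1.61. The P450 and plasma protein lists thus fell while both C/EBP genes were higher and Hnf4a was lower. Genes typical of hepatocytes near the central vein fell in 11 of 18 cases (median -0.30, and -0.17 with 24 h alone, where 8 fell), and those typical of hepatocytes near the portal vein in 15 of 17 (median -0.92, and -0.65 with 24 h alone, where 12 fell). Cyp2f2 (-2.04) had the smallest p of the periportal list, in which Arg1 fell more, and Cyp2e1 that of the pericentral one, and the difference between these lists was not tested.

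The integrated stress response, in which phosphorylation of the initiation factor eIF2 slows translation and raises ATF4 and its targets, moved the other way. Of 24 tested genes of this pathway, 20 rose and 1 fell, against 31.3% and 29.7% of all genes. The median difference was 0.68, and 8 rose at least 2-fold (background 1.85%). With 24 h alone 22 rose and the median was 0.59 (background 23.6%). Besides Ddit3, the leading members were Trib3, a pseudokinase that restrains insulin signalling, and Ppp1r15a, which brings the phosphatase to eIF2. Trib3 read 8.90 and 9.07 at 8 h, 9.81 and 9.95 at 16 h, 11.40 and 11.28 at 24 h, and 11.66 and 11.77 at 32 h. Ppp1r15a read 7.43 and 7.51, 7.93 and 7.96, 9.63 and 9.68, and 9.80 and 9.75. Both had their largest step from 16 to 24 h, and neither overlapped between windows (differences 2.10 and 2.01). The amino acid carrier Slc7a5 rose by 1.32. The single fall was Shmt2 (-0.41), a mitochondrial one-carbon enzyme, and Gars (0.06), Phgdh (0.11) and Stc2 (-0.09) did not pass. The list of endoplasmic reticulum chaperones, which also holds regulators of the related unfolded protein response, was split. Of 23 tested, 10 rose and 10 fell (7 and 10 with 24 h alone). The 4 with the smallest p-values all rose: Sel1l (0.92), Atf6 (0.88), the chaperone gene Hspa5 (0.54) and Xbp1 (0.36).

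Immediate early genes, transcription factors and regulators that respond within minutes to signals, rose in 19 of 23 cases (median 0.62), Srf falling (-0.43) and Egr3, Nr4a1 and Klf2 not passing. The list's median step was 0.12 from 8 to 16 h, 0.74 from 16 to 24 h and -0.17 from 24 to 32 h. With 24 h alone the median was 0.87 and again 19 rose. The integrated stress response list had median steps of 0.38, 0.53 and -0.11 in the same order, its largest step also from 16 to 24 h. Egr1, chosen here after its values were seen, read 9.65 and 9.66 at 8 h, 9.86 and 9.62 at 16 h, 11.92 and 12.06 at 24 h, and 10.19 and 10.28 at 32 h. The 24 h arrays stood far above those of every other hour. Btg2, an antiproliferative gene, read 10.72 and 10.69, 10.94 and 10.93, 12.01 and 12.10, and 11.64 and 11.63, and was highest at 24 h as well. Myc, by contrast, kept its level, at 10.99 and 11.04 at 24 h and 11.06 and 11.02 at 32 h, after 9.59 to 9.96 in the earlier window (difference 1.24, adjusted p = 1.97e-24). Klf6 rose by 0.82.

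In the lists of growth arrest and of signalling feedback, rises outnumbered falls. Of 23 tested p53 targets and CDK inhibitors, 17 rose (median 0.56, and 0.42 with 24 h alone, where 13 rose), among them Gadd45b (1.52), Plk2 (1.28) and Cdkn1a (0.61), the inhibitor p21. The falls were Cdkn2c (-0.63), Plk3 (-0.49) and Perp (-0.17). Cdkn1a read 10.84 and 10.82 at 8 h, 10.82 and 10.74 at 16 h, 11.15 and 11.27 at 24 h, and 11.67 and 11.59 at 32 h. Of 16 MAP kinase feedback genes, 11 rose and 3 fell (median 0.33, and 0.32 with 24 h alone, where 10 rose), the rises led by the phosphatases Dusp4 (1.03), Dusp10 (0.65) and Dusp1 (0.53). In the SOCS and STAT3 feedback list 11 of 18 rose and 6 fell (median 0.14, and 0.17 with 24 h alone, where 10 rose and 2 fell), with Socs2 (1.53), Pim1 (1.46) and Cish (1.44) up and Socs3 down (-0.23). Socs2 was highest at 24 h, where it read 10.40 and 10.44 against 8.61 to 8.88 in the earlier window.

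Secreted ligands rose in 13 of 21 cases and fell in 6 (median 0.31, and 0.51 with 24 h alone, where 11 rose and 5 fell). Csf1, the macrophage growth factor, read 8.89 and 8.80 at 8 h, 9.20 and 9.23 at 16 h, 10.28 and 10.20 at 24 h, and 11.07 and 11.03 at 32 h. Inhba, which encodes the activin A chain, read 8.25 and 8.18, 8.52 and 8.47, 9.44 and 9.58, and 10.10 and 10.05. Both climbed at each hour without overlap between the windows, by 1.62 for Csf1 and 1.44 for Inhba. Igf1 fell by 1.01, a gene for which 2 of 4 probe sets had the opposite sign. Cxcl10, the chemokine named in the series title, fell by 0.43. Of the receptors for the study's factors, Met, the HGF receptor, did not pass the test (-0.01, adjusted p = 0.89), with every array between 10.71 and 10.83. The IL-6 receptor chains Il6ra (0.32, adjusted p = 1.79e-06) and Il6st (0.53, adjusted p = 7.94e-19) rose, Il6ra by the brighter of 2 probe sets of opposite sign.

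Lists of cell shape, matrix and other lineages did not all move one way. YAP and TEAD targets, which report tension and spreading, rose in 15 of 22 cases (median 0.55, and 0.46 with 24 h alone, where 16 rose). Ccn1 read 11.07 and 11.11 at 8 h, 11.28 and 11.37 at 16 h, 12.31 and 12.37 at 24 h, and 11.72 and 11.67 at 32 h, a peak at 24 h. Wwtr1 (0.81), which encodes the YAP paralogue TAZ, and Tead1 (0.69) rose, while Yap1 (-0.05) did not pass. Wwtr1 and Tead1 are factors of the pathway itself, although the list counts them. Mesenchymal and TGF-beta response genes rose in 15 of 21 cases (median 0.42, and 0.315 with 24 h alone, where 13 rose), with Skil (1.28), Tgfb2 (1.16), Snai2 (1.02) and Fn1 (0.80), and Vim rose by 0.45. The falls were Twist1 (-0.50), Tgfbr2 (-0.48), S100a4 (-0.30) and Mmp2 (-0.30), of which Twist1 and Mmp2 lay below the median on all 8 arrays. Collagens, laminins and integrins had 8 rises and 6 falls in 25 (median -0.04, with 6 and 3 at 24 h alone), and matrix proteases and inhibitors 5 and 4 in 16 (median -0.03, with 5 and 2 at 24 h alone). Both lists are near the shares of all tested genes, 31.3% rising and 29.7% falling. In the progenitor and biliary list 8 of 12 rose (7 rose and 2 fell with 24 h alone), among them Sox4 (0.96), Bicc1 (0.68), Cd24a (0.61) and Sox9 (0.58), and Krt7, below the median on all 8 arrays, fell (-0.60). Cholangiocyte markers passed the filter for 8 of 12 measured genes, of which 4 rose and 2 fell, Krt7 among the falls. The list's median was 0.09, and -0.08 with 24 h alone, where 3 rose and 1 fell. The rises were Bicc1, Sox9, Pkhd1 and Krt19, the last by 0.26 but with -0.18 at 24 h alone. The summed intensity of the cholangiocyte markers was 1698 to 2446 in the earlier window and 2553 to 3103 in the later one, and Cftr did not pass the filter. Stellate cell and fibroblast markers had 3 rises, Col3a1 (0.65), Postn (0.22) and Acta2 (0.18), and 4 falls, Reln (-0.43), Pdgfrb (-0.33), Thy1 (-0.29) and Dcn (-0.22), in 11 tested (median -0.07), at summed intensities of 551 to 588 and 546 to 579. Col3a1 lay below the array median on 6, Reln on 4, Pdgfrb on 8 and Thy1 on 7 of the 8 arrays. Such values may be background rather than levels. With 24 h alone 1 stellate cell and fibroblast marker rose and 2 fell (median -0.06). The part of other cells in these lists was not tested. Tubulins and keratins fell in 8 of 11 cases and rose in 2 (median -0.83, and -0.35 with 24 h alone, where 8 fell), with Tubb2a at -0.94, Tubb4b at -0.90, Tubb5 at -0.86 and Tuba4a at -0.85.

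The circadian clock is a transcription loop in which CLOCK or NPAS2 pairs with ARNTL (BMAL1) to switch on the Per and Cry repressors, the Nr1d1 receptor and output genes such as Dbp. Of 21 tested clock genes, 16 rose and 0 fell (median 0.54). The hours 8 and 32 are 24 h apart. From 8 to 32 h, 18 of the 21 rose and 0 fell (median 0.82, background 31.9% rising and 28.0% falling). The list's median step was 0.06 from 8 to 16 h, 0.21 from 16 to 24 h and 0.66 from 24 to 32 h, so that with 24 h alone 12 rose and 3 fell (Dbp, Tef and Nr1d2) and the median was 0.26. Among the activators, Arntl read 7.12 and 7.14 at 8 h, 6.85 and 7.01 at 16 h, 8.06 and 7.94 at 24 h, and 8.74 and 8.77 at 32 h (difference 1.35, adjusted p = 9.04e-24). Its other probe set had the opposite sign. Npas2 read 4.25 and 4.22, 3.41 and 3.90, 4.98 and 4.45, and 5.99 and 6.19 (difference 1.46, with the earlier arrays and 1 of 24 h below their medians). Both were lowest at 16 h and highest at 32 h. Clock rose by 0.25, by its 32 h arrays (9.98 and 9.90) and not its 24 h arrays (9.35 and 9.19).

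Of the repressors, Cry1 read 7.12 and 7.10 at 8 h, 7.62 and 7.76 at 16 h, 8.15 and 8.26 at 24 h, and 9.08 and 9.12 at 32 h. It climbed at every step (difference 1.25, adjusted p = 1.18e-20). Per1 rose by 0.54, Cry2 by 0.45 and Per2 by 0.33 (adjusted p = 0.0412), while Per3 (0.04) did not pass. Ciart, a repressor of the CLOCK complex, rose by 0.87. Nfil3, which represses Dbp-type promoters, had the smallest p-value of the list and read 8.64 and 8.70, 9.29 and 9.27, 10.59 and 10.55, and 10.91 and 10.83 (difference 1.74, SE 0.04, adjusted p = 8.99e-33). In contrast to Cry1 and Nfil3, the output gene Dbp read 5.84 and 6.09 at 8 h, 5.70 and 5.65 at 16 h, 4.77 and 5.02 at 24 h, and 8.10 and 7.68 at 32 h. Dbp was lower at 24 h than at 16 h (-0.78, adjusted p = 0.00353) and higher at 32 h than at 24 h (adjusted p = 1.27e-15), so the windows overlapped. Nr1d1 read 5.22 and 5.38, 5.07 and 5.12, 4.99 and 5.15, and 6.63 and 6.24, and its rise of 0.55 likewise rested on 32 h. With 24 h alone, Dbp, Nr1d1, Per2 and Clock had differences below 0 (-0.93, -0.13, -0.11 and -0.09), of which that of Dbp passed the test. Tef (-0.44, adjusted p = 7.13e-06) and Nr1d2 (-0.29, adjusted p = 0.00172) also fell with 24 h alone. Of the remaining members, Csnk1e (0.82), Rora (0.71), Bhlhe40 (0.56), Noct (0.48) and Csnk1d (0.28) rose, and Bhlhe41 (0.10), Nr1d2 (0.06), Tef (-0.04) and Hlf (-0.14) did not pass over both late hours.

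The E-box CACGTG, the site that the CLOCK and ARNTL pair binds, was searched on both strands in the 250 bases before each transcript start (RefSeq, GRCm38.p6). The motifs here and below were chosen after the values were seen, and a match is a description of letters. The E-box was found in 5 of the 18 clock genes with a promoter entry (27.8%) and in 1104 of 11639 tested genes with such an entry (9.49%). The 5 promoters are shown because they hold the loop's own repressors and an output gene, with the E-box in capitals (GRCm38.p6, RefSeq). Per1 lies at chr11:69098771-69098800 (plus strand, 166 bases before the start), Cry1 at chr10:85185097-85185126 (minus, 60 bases), Ciart at chr3:95882255-95882284 (minus, 44 bases, the nearest of 3 sites), Tef at chr15:81802534-81802563 (plus, 127 bases) and Bhlhe41 at chr6:145865556-145865585 (minus, 153 bases). Per1, Cry1 and Ciart rose, and Tef and Bhlhe41 did not pass the test.
Per1: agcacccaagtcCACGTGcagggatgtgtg
Cry1: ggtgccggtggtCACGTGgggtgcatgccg
Ciart: cgtgcagaaccgCACGTGtctgggaggggg
Tef: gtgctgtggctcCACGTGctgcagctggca
Bhlhe41: tggtacgttccgCACGTGagctgggtgctg

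**Figure D3:**
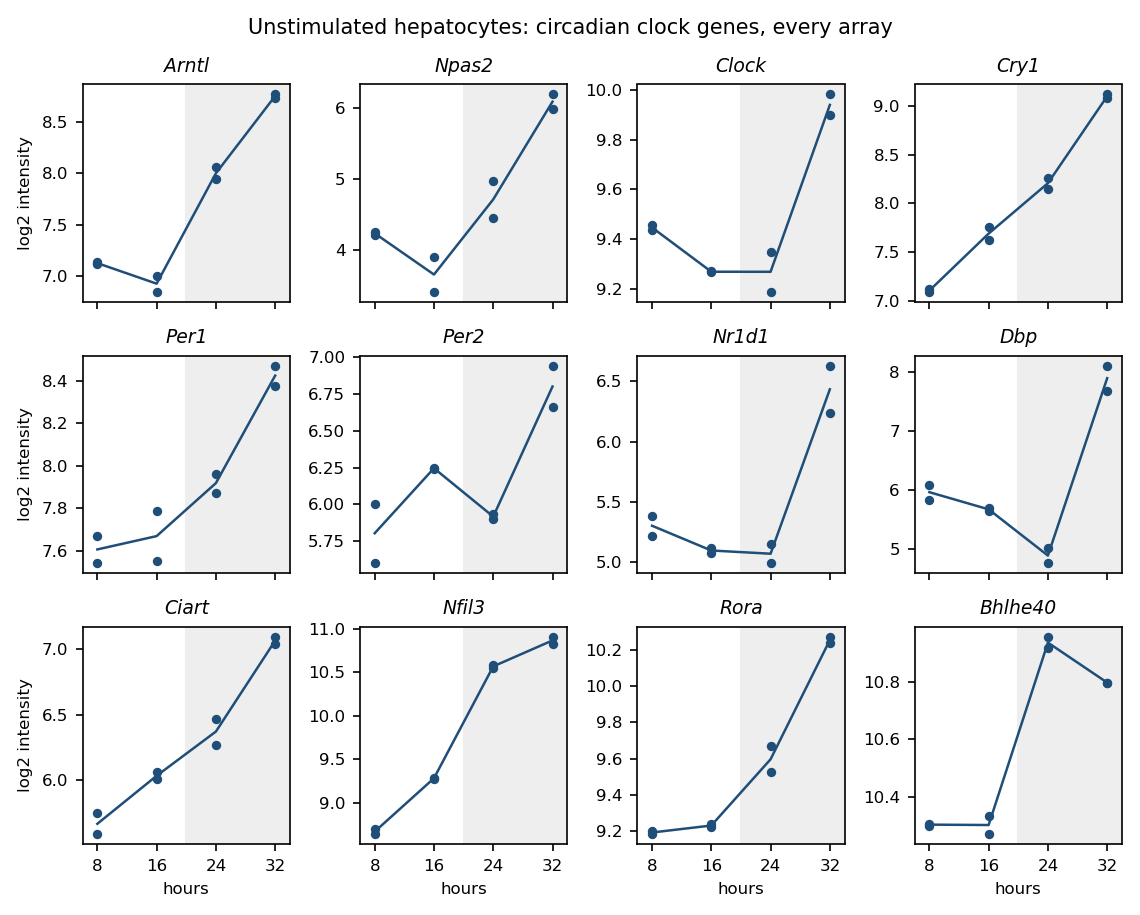
Log2 intensity (vertical axis) of 12 clock genes on the 8 unstimulated arrays against the hour (horizontal axis). Points are arrays, the line joins the means of each hour's 2 arrays, and grey marks the later window; Nfil3 and Cry1 climb throughout, while Dbp and Nr1d1 are low at 24 h and high at 32 h.

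Cholesterol synthesis was the list in which all tested genes moved one way. Of 24 genes, 4 had no probe set of their own and the 20 tested all fell, 8 of them at least 2-fold, with a median of -0.76. All 20 also fell with 24 h alone (median -0.56). Idi1, an early enzyme of the isoprenoid branch, read 10.82 and 10.70 at 8 h, 10.08 and 10.24 at 16 h, 8.69 and 8.73 at 24 h, and 8.30 and 8.30 at 32 h. Tm7sf2, a sterol reductase, read 8.91 and 8.91, 8.40 and 8.41, 7.43 and 7.50, and 6.95 and 7.03. Both declined at each step, most between 16 and 24 h, with differences of -1.95 (SE 0.09, adjusted p = 2.65e-24) and -1.43 (SE 0.06, adjusted p = 1.26e-25). Cyp51 (-1.60), Ebp (-0.86) and Hmgcs1 (-0.88), which starts the pathway, fell as well. Srebf2, the gene of the transcription factor that drives the pathway, fell by 0.21 and had its drop between 8 h (7.83 and 7.90) and 16 h (7.43 and 7.43), after which it stayed between 7.40 and 7.46. The list's median steps were -0.47, -0.50 and -0.16 in order of time. In the separate early samples the direction was the other one: 13 of the 20 rose and 0 fell over 0.5, 2 and 4 h against 0 h (median 0.25, background 7.29% rising and 6.48% falling). With the replicate block 8 of the 20 rose and 0 fell (median 0.24, background 4.36% and 3.29%). The level of no early sample was set against the later ones.

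Genes of mitosis first rose and then fell. Between the windows, 21 of 29 tested genes of G2 and mitosis fell and 0 rose (median -0.45). By step, 23 rose from 8 to 16 h (median 0.62, background 11.5%), 10 fell from 16 to 24 h (median -0.30, background 16.5%) and 27 fell from 24 to 32 h (median -1.003, background 17.4%). With 24 h alone against 8 and 16 h the median was 0.01, so the fall between the windows rested on 32 h. Cdk1, the kinase that starts mitosis, read 8.25 and 8.35 at 8 h, 8.94 and 8.90 at 16 h, 8.34 and 8.20 at 24 h, and 6.97 and 7.15 at 32 h. Its 8 and 24 h arrays overlapped (difference between the windows -0.95, adjusted p = 1.4e-11). Ccna2, cyclin A, read 8.27 and 8.24, 8.72 and 8.79, 7.99 and 7.94, and 6.80 and 6.69, and Aurkb fell by 1.11. Ccnb2, cyclin B2, read 6.51 and 6.56, 8.05 and 7.87, 7.76 and 7.68, and 6.39 and 6.47. It was high at 16 and 24 h alike and differed between the windows by -0.17, which did not pass (adjusted p = 0.221). Genes of the G1 to S step and of DNA replication fell in 24 of 33 cases (median -0.41, and -0.30 with 24 h alone). Pcna (-0.92), the replication clamp, and the helicase subunits Mcm4 (-1.01) and Mcm6 (-0.88) fell. The rises were Ccnd2 (1.38), Mcm7 (0.63), E2f3 (0.40), Cdc25a (0.23) and Cdk6 (0.15). Ccnd1, the cyclin of the G1 restriction point, fell by 0.41.

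Both lists have many promoters with the CCAAT box, which binds the factor NF-Y and is known from sterol and cell cycle genes. Searched as ATTGG on both strands in the 250 bases before the start, it was found in 16 of 16 cholesterol genes with a promoter entry (100%), in 20 of 23 genes of G2 and mitosis (87.0%; not in Birc5, Mad2l1 and Nusap1), and in 4625 of 11639 tested genes (39.7%). Neither of the motifs searched contains the other. The nearest matches of 3 sterol genes and 2 mitotic genes are shown to let the settings be compared, in capitals (GRCm38.p6, RefSeq). Idi1 lies at chr13:8885549-8885577 (plus strand, 45 bases before the start), Tm7sf2 at chr19:6067881-6067909 (minus, 47 bases), Ebp at chrX:8193551-8193579 (minus, 55 bases), Cdk1 at chr10:69352944-69352972 (minus, 48 bases) and Top2a, the DNA topoisomerase of mitotic chromosomes, at chr11:99024231-99024259 (minus, 58 bases, the nearest of 6 sites).
Idi1: tgcctccagctgATTGGcgagcccgggca
Tm7sf2: ctcccagcgctgATTGGctactgtgctgg
Ebp: atccctgtactgATTGGttcgtcagattc
Cdk1: acgtgcaatcggATTGGcggatcccggga
Top2a: agcgagtcggtgATTGGttcctctgattt

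**Figure D4:**
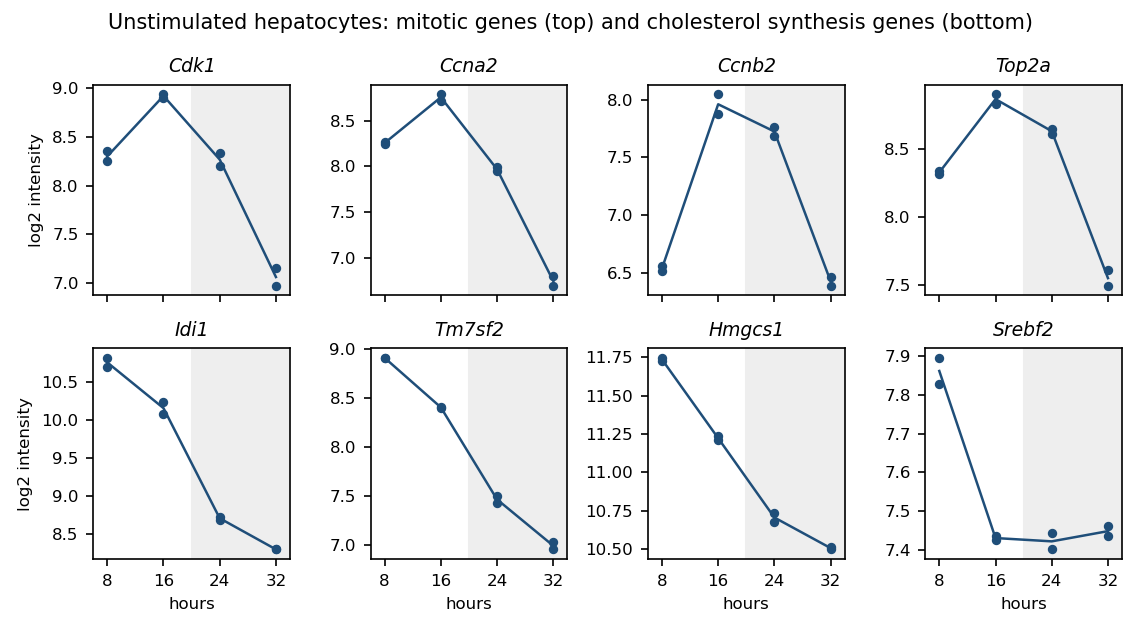
Log2 intensity (vertical axis) on the 8 unstimulated arrays against the hour (horizontal axis) for 4 cell cycle genes (top) and 4 genes of cholesterol synthesis (bottom). Points are arrays, the line joins each hour's mean, and grey marks the later window; Cdk1 and Ccnb2 peak at 16 h, and Idi1 and Tm7sf2 decline from 8 h on.

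The same windows were compared in the 3 stimulated arms, each on 8 arrays of its own. The largest late changes were shared. Of the 269 rises of at least 2-fold, 263 also rose with HGF (97.8%), 269 with IL-6 (100%) and 264 with both (98.1%), which is 6.20%, 6.00% and 5.87% of the rises called in each arm. Of the 279 falls, 273 (97.8%), 274 (98.2%) and 276 (98.9%) fell. Of all tested genes, 29.2%, 30.9% and 31.0% rose and 24.5%, 27.7% and 27.1% fell in these arms. The late change differed from the unstimulated one for 3137 genes with HGF (21.6%), 1501 with IL-6 (10.3%) and 2675 with both (18.4%), by the interaction in the same fit. These 3 differences share the unstimulated arrays. A hybridisation control, bioB, read 8.46 to 8.72 on the 8 unstimulated arrays and 5.94 to 7.46 on the 24 stimulated ones, and its part was not tested. One array, the IL-6 sample of 24 h replicate 1, had a 3′ minus 5′ difference of 3.99 on the spiked control dap against 2.47 to 3.11 on the other 31 arrays of 8 to 32 h. Without it, 268 of the 269 rises and 274 of the 279 falls were shared with IL-6, and 1397 genes (9.63%) differed.

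The stress genes changed less between the windows in the stimulated arms. Levels of the list were not compared between the arms, and a higher level at 8 and 16 h also makes this change smaller. For the integrated stress response list the median late difference was 0.68 unstimulated, 0.37 with HGF, 0.50 with IL-6 and 0.22 with both. The late change was lower than the unstimulated one for 16, 14 and 20 of the 24 genes (background 12.7%, 4.33% and 9.48%) and higher for 0. Ddit3 with HGF read 7.43 and 8.01 at 8 h, 11.24 and 11.11 at 16 h, 11.80 and 11.68 at 24 h, and 12.08 and 12.15 at 32 h. Its HGF arrays of 16 h were already close to the late ones, and the change differed from the unstimulated one by -0.61 (adjusted p = 0.000622). At 16, 24 and 32 h the Ddit3 arrays with HGF all stood above the unstimulated ones of the same hour. Fgf21 with HGF read 4.97 and 5.42, 6.52 and 6.54, 6.67 and 6.83, and 6.66 and 6.71, and with both factors it stayed between 5.19 and 5.97. The peak seen at 24 h without factors was thus not present at that size, with differences of -1.74 for HGF (adjusted p = 4.42e-14), -1.57 for IL-6 (adjusted p = 1.22e-12) and -2.25 for both (adjusted p = 3.02e-18).

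Arg1 fell in every arm but from different levels. With HGF it read 7.90 and 8.06 at 8 h, 5.80 and 5.56 at 16 h, 4.87 and 4.39 at 24 h, and 3.73 and 3.65 at 32 h. By 16 h it had passed below all unstimulated arrays of 24 h, and at 32 h all arms read between 3.58 and 4.51, below the array medians, where levels cannot be told apart. Pck1 with HGF lay between 3.44 and 4.09 throughout, below the median of each array, so no further fall could have been seen there. Its late change differed from the unstimulated one by 1.85 (adjusted p = 8.26e-07), and by 1.097 (adjusted p = 0.000594) with low values raised to the median. That difference rests on the fall of the unstimulated arm alone.

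Acute phase genes changed less with IL-6, the cytokine that induces them in liver. The list's median late difference was -0.75 unstimulated, -0.87 with HGF, -0.18 with IL-6 and -0.35 with both. The change with IL-6 was higher than the unstimulated one for 20 of 28 genes and lower for 0 (background 6.02% and 4.33%). Fgg with IL-6 read 13.54 and 13.61 at 8 h, 13.44 and 13.60 at 16 h, 13.50 and 13.44 at 24 h, and 13.33 and 13.34 at 32 h. All 8 of these arrays lay above every unstimulated array of these hours (difference of the changes 1.72, SE 0.06, adjusted p = 1.65e-25), and without the array that stood apart the Fgg difference was 1.71 (adjusted p = 1.07e-23). Saa3 with both factors read 10.43 and 10.28, 10.75 and 10.68, 10.95 and 10.99, and 11.46 and 11.65, a rise of 0.72 where the unstimulated change was -1.25. Genes of G2 and mitosis had a median late difference of 0.01 with IL-6, -0.19 with HGF and -0.09 with both, and the change with IL-6 was higher than the unstimulated one for 17 of 29. Clock genes had medians of 0.54 with HGF, 0.54 with IL-6 and 0.65 with both, and cholesterol genes of -0.83, -0.62 and -0.76.

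**Figure D5:**
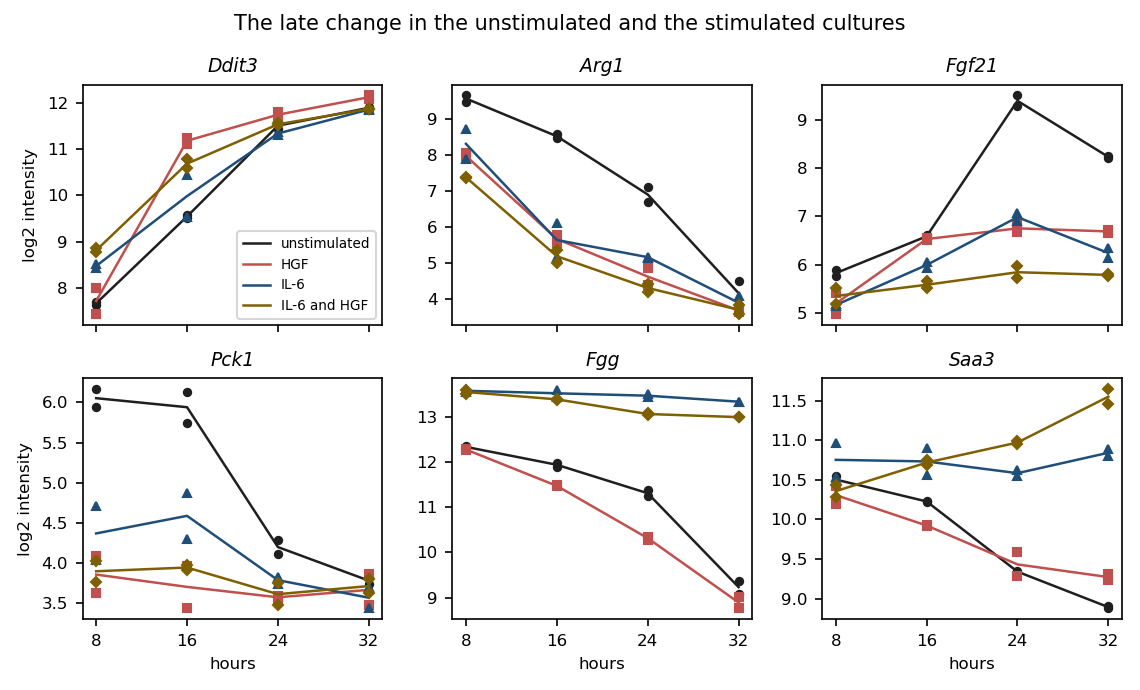
Log2 intensity (vertical axis) of Ddit3, Arg1, Fgf21, Pck1, Fgg and Saa3 against the hour (horizontal axis) in the unstimulated, HGF, IL-6 and IL-6 plus HGF arms. Points are arrays and lines join the mean of each hour's 2 arrays; Fgg with IL-6 stays above 13, and the unstimulated Fgf21 arrays of 24 h (9.28 and 9.50) stand above those of every other arm.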

How the data were processed

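Gene expression was measured on 60 Affymetrix arrays, 8 of which form the comparison described above. The values are log2 intensities as deposited by the authors in the table of the whole series; no label or header records how probes were summarised, background-corrected and scaled, and the nearly equal array medians are a property of the deposited table. Labelling followed a one-cycle 3′ protocol, per the labels' protocols, which favours the 3′ ends of transcripts. Of 45101 probe sets, 34958 carry 1 gene symbol, 932 several and 9211 are not listed in the platform annotation used; 34754 symbols were updated through RefSeq gene IDs. The probe set with the highest mean stood for its gene, and 14513 of 18194 genes passed the filter (above the 40th percentile of an array on at least 2 of the 60 arrays).

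A limma model (version 3.58.1, R 4.3.3) gave each of the 29 groups a mean over all 60 arrays, with 31 residual degrees of freedom and a mean-variance trend. Contrasts of group means gave differences, standard errors and moderated tests, two-sided, with Benjamini-Hochberg adjustment over all 14513 genes and a threshold of 0.05. Differences between arms are interaction contrasts in the same fit. On simulated data with 50 changed genes per size in the 24 and 32 h comparison, the procedure recovered 18 at 1.15-fold, 38 at 1.3-fold, 49 at 1.5-fold and 50 at 2-fold, with 6 of 14313 unchanged genes called. The simulation had independent normal noise, no difference between the hours of a window and few changed genes. Its count of false calls therefore does not carry over to the real arrays, where 60.9% of genes were called.

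The arrays and the 58 gene lists (1203 genes, 77 without a probe set of their own, 1085 tested) were chosen with earlier results of these data known. The genes named are the 12 largest rises and falls without overlap between windows, up to 4 members of each list with the smallest adjusted p and those that define its pathway, a fixed panel, the clock genes, and, between arms, the 4 largest differences. Genes named beyond these were chosen after their values were seen. The protocol speaks of triplicates, while 2 arrays per hour were analysed here. The alternatives concerned normalization, filter, low values, probe sets, variance model, groups, pairing and single arrays.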

Additional observations from a re-analysis of the deposited data

Results flagged for a closer look

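Among 202 groups of 4 arrays checked for a value far from the others (Dixon's test, which chance passes in about 1 in 20 groups), 3 held one. Arg1 read 9.69 on one 0 h array against 10.05 to 10.11 on the others. Cyp7a1 read 3.79 on one 0 h array against 4.04 to 4.06. Cxcl10 read 7.13 on one array of the 8 and 16 h window against 7.61 to 7.70 on the others.

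For the 4 genes with the largest difference in each stimulated arm, the late change differed from the unstimulated one by the interaction test (limma, adjusted over all tested genes). With HGF, Pck1 changed by -0.16 instead of -2.01 (difference 1.85, adjusted p = 8.26e-07), but all 8 of its arrays with HGF lay below their medians, and with low values raised to the median the Pck1 difference was 1.097 (adjusted p = 0.000594). Fgf21 changed by 0.86 with HGF instead of 2.60 (difference -1.74, adjusted p = 4.42e-14). The chemokine gene Cxcl3 changed by -2.95 instead of -1.21 (difference -1.74, adjusted p = 5.66e-07), with all 8 unstimulated arrays below their medians and a Cxcl3 difference of -2.27 by that floor. Ms4a6b changed by -0.75 instead of 0.90 (difference -1.65, adjusted p = 4.3e-13).

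With IL-6, the cornified envelope gene Ivl changed by 0.19 instead of -1.69 (difference 1.88, adjusted p = 1.72e-06). The fibrinogen chains Fgg and Fga changed by -0.15 and -0.21 instead of -1.87 and -1.90 (differences 1.72 and 1.69, adjusted p = 1.65e-25 and 3.22e-21). Vgll3, a partner of TEAD factors, changed by 2.02 instead of 0.43 (difference 1.59, adjusted p = 2.63e-09). With low values raised to the array median, the differences of Ivl and Vgll3, which reached below it, were 1.16 and 1.049. Without the IL-6 array of 24 h replicate 1, which stood apart on a spiked control, the 4 differences were 1.92 for Ivl, 1.71 for Fgg, 1.71 for Fga and 1.48 for Vgll3.

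With both factors, Fgf21 changed by 0.35 (difference -2.25, adjusted p = 3.02e-18). Saa3 changed by 0.72 instead of -1.25 (difference 1.97, adjusted p = 1.07e-19). Gm13889 changed by 0.24 instead of 2.16 (difference -1.92, adjusted p = 3.76e-13). The glutathione transferase gene Gstm3 changed by -2.15 instead of -0.29 (difference -1.86, adjusted p = 2.12e-21).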

How the results depend on the processing

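The main count of 8843 genes lay between 8099 and 8466 when any 1 of the 8 arrays was left out, and became 5588 when the 2 windows were fitted as 2 groups on 8 arrays, where the spread between hours counts as error. Quantile normalization gave 8689 genes, of which 47.0% were higher instead of 51.3%, and moved the median of all genes by -0.01. Of the 58 list medians it turned that of collagens, laminins and integrins (-0.04 to 0.0092). The count of 2820 genes between 8 and 16 h became 1637 to 2339 without 1 array. Same-numbered unstimulated arrays of 8 to 32 h deviated together at correlations of -0.24 (16 and 24 h) to 0.04 over 6 pairs of hours. The numbers as given thus showed no pairing on these arrays. A preparation shared under crossed numbers would give a negative value, so which arrays share one stays unknown. With the replicate block the main count was 8852 and the early count 1111 instead of 1999. On the 4 arrays of 16 and 24 h alone, the replicate block gave 3432 genes with the numbers as given and 6013 with crossed numbers, against 5153. With values below an array's median raised to it, chosen after the data were seen, 8279 genes were called. Of the 255 genes tallied in the next paragraph, 12 have no value there because neither window lay above the median throughout. The differences from the unstimulated change numbered 2731 to 3161 with HGF, 1204 to 1675 with IL-6 and 2276 to 2598 with both when any 1 array was left out.

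A tally covered 255 genes: the 12 largest rises and falls, the fixed panel, the clock genes and up to 4 members of each list. Other genes named here, among them Egr1, Ccnb2 and Srebf2, were not part of it. Of 5581 values over 22 alternatives, 5455 kept direction and side of the threshold. Of the rest, 94 (34 genes) no longer passed, 6 newly passed and 26 (13 genes) changed sign. With the mean over probe sets, the sign changed for Per3 (-0.0192), Nr1d2 (-0.0447), Tef (0.09) and Col18a1 (-0.0477). With 24 h alone, chosen like the next 3 settings after the data were seen, it changed for Krt19 (-0.1834), Clock (-0.0892), Per2 (-0.1076), Nr1d1 (-0.1296), Nr1d2 (-0.2931), Dbp (-0.9261) and Mpeg1 (0.2214). With 32 h alone it changed for Met (0.0253) and Tef (0.3629). Against 16 h alone it changed for Met (0.0186), Nr1d2 (-0.0254) and Reln (0.0213), and against 8 h alone for Afp (0.1297) and Per3 (-0.0157). Without 1 array, Afp ranged from -0.1143 to 0.0874, Met from -0.0277 to 0.0147 and Tef from -0.1076 to 0.0314. The cause was not tested. With 2 arrays per hour, their number limits the precision of every single-hour step.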

Other observations

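Energy and protein-turnover genes fell by small amounts. Of 36 tested respiratory chain genes 26 fell (median -0.23, and 26 with 24 h alone), among them Atp5c1 (-0.54, with 1 probe set of opposite sign), Ndufs1 (-0.51), Ndufv2 (-0.50) and Uqcrc2 (-0.35). Cox7c (0.53, with its 4 earlier arrays below their medians) and Ndufs4 (0.08, with 2 of 4 probe sets of opposite sign) rose. Of 31 proteasome genes 20 fell (median -0.13, and -0.03 with 24 h alone, where 10 fell), with Psmd13 at -0.57, and Psmd6 (0.25) and Psmb3 (0.21) rose. Ribosome biogenesis moved the other way, with 15 of 26 genes rising (median 0.15, and 0.07 with 24 h alone, where 12 rose), among them Nop56 (0.59), Wdr43 (0.54), Gnl3 (0.52) and Nip7 (0.47). Autophagy and lysosome genes rose in 15 of 25 cases (median 0.15, and 0.10 with 24 h alone, where 13 rose), with Gpnmb (1.06), Sqstm1 (0.96), Npc1 (0.83) and Atg12 (0.50).

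Interferon and antigen presentation genes fell in 20 of 30 cases (median -0.31, and -0.13 with 24 h alone, where 9 fell), led by the interferon-inducible GTPase Iigp1 (-1.51) and the immunoproteasome subunit Psmb10 (-0.83). The class I genes H2-K1 (0.33), H2-D1 (0.31, with 2 probe sets of opposite sign) and their light chain B2m (0.22) rose. Chemokine and NF-kB genes were split (11 of 29 rose and 8 fell, 16 and 6 with 24 h alone), with Csf1 up and Ccl9 (-2.04), Cxcl9 (-1.32) and Cxcl1 (-1.12) down. Over both late hours that split is not far from the shares of all tested genes, 31.3% rising and 29.7% falling. Iron genes were split as well (8 of 19 rose and 9 fell, 7 and 4 with 24 h alone). Bmp6, the ligand that induces hepcidin, rose by 1.40 and its target Smad7 by 0.99, and Hjv, the BMP co-receptor hemojuvelin, changed by -1.75. Of 21 junction genes 10 fell and 6 rose (8 and 6 with 24 h alone): the gap junction genes Gjb1 (-1.47) and Gjb2 (-1.03) and the claudins Cldn2 (-1.49) and Cldn1 (-1.41) fell, and the desmosomal genes Dsc2 (0.57), Dsg2 (0.43) and Dsp (0.43), chosen after their values were seen, rose. Hypoxia response genes rose in 10 of 16 cases (median 0.25, and 0.19 with 24 h alone, where 7 rose), with Vegfa (1.14), Ndrg1 (1.06), Ddit4 (0.78) and Kdm3a (0.73). Among insulin and FoxO responsive genes Txnip rose by 1.98 and Igfbp1 by 0.76, and Irs1 fell by 1.26.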
